A study of Mus musculus with 2 samples.

Results

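The genes described here carry iron into the red cell precursor, store it and sense it. They are 10 genes taken by symbol from the 43346 Ensembl genes quantified in MEL cells, a mouse erythroleukemia line that starts to make hemoglobin in dimethyl sulfoxide (DMSO). The cells had been in 2% DMSO for 5 days, and polyadenylated RNA was sequenced from single ends in 2 libraries, which the labels number as biological replicates 1 and 2. All cells were treated and no untreated cells were analysed here, so each value is a level in treated cells of 1 immortalized line and not a response to DMSO. Both carry the same cell sample identifier, so whether the cultures were separate is not settled, and the spread between the libraries may be biological or technical. With 1 group of 2 libraries no test between conditions could be made.

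A developing red cell takes up most of its iron as transferrin, which binds transferrin receptors and enters endosomes, where the iron is released, reduced and carried into the cytosol. From there it moves through the inner mitochondrial membrane for heme synthesis, and what is not used is held in ferritin, a shell of heavy and light chains. The balance is set on the messages. When iron is short, the iron regulatory proteins IRP1 and IRP2 bind a hairpin called the iron-responsive element (IRE), which blocks translation of ferritin messages that carry it before the coding sequence and protects the transferrin receptor message that carries it after the coding sequence.

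The hairpins of the 10 genes are shown first, since the IRPs act through them and transcripts of 1 gene differ in whether they hold one. The matched transcripts were searched along their own strand for an unpaired C, 5 bases of an upper stem, a loop of 6 bases reading CAGTGN and 5 bases that pair with the stem, with G-to-U pairs allowed. Capitals mark the unpaired C and the loop, bases are written as DNA, and positions are mm10. Sequences are those of the GENCODE M21 transcripts. Tfrc-201 held 4 matches in its 3′ UTR, at chr16:32631219-32631248, chr16:32631598-32631627, chr16:32631663-32631692 and chr16:32631710-32631739 on the plus strand, each with 5 of 5 further pairs below the unpaired C. Fth1-201 held 1 in its 5′ UTR at chr19:9982732-9982761 (plus strand, loop 126 bases before the first coding base) and Ftl1-201 held 1 in its 5′ UTR at chr7:45459778-45459807 (minus strand, 164 bases before it), each with 4 of 5 lower pairs. Slc11a2-205 held 1 in its 3′ UTR at chr15:100395152-100395181 (minus strand, 47 bases after the last coding base), found when 1 base of the 3′ arm was allowed to stay unpaired.
Tfrc-201, site 1: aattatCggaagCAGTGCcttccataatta
Tfrc-201, site 2: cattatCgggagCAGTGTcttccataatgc
Tfrc-201, site 3: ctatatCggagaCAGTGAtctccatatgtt
Tfrc-201, site 4: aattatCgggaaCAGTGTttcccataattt
Slc11a2-205: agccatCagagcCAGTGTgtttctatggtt
Fth1-201: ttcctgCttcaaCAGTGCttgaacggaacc
Ftl1-201: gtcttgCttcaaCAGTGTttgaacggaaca

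The ferritin hairpins were identical at 26 of 30 bases. Counted from the 5′ end of the 30 bases, with the Fth1 base first and the Ftl1 base last, they differed by T1G, C4T, C18T and C30A. The C18T difference is the last base of the loop. A match with every base of the upper stem paired, whatever the pairing below the unpaired C, was rare. It was present in 0.115% of 19960 mouse genes with a 5′ UTR and in 0.578% of 20759 genes with a 3′ UTR. Among 5′ UTRs within 25% of the length of the longest one of each ferritin gene, the shares were 0.224% for Fth1 and 0.108% for Ftl1. The set for Fth1 had a median length of 714 bases. The Fth1-201 sequence searched has 929 bases, of which 546 are coding and 159 are 3′ UTR, so its own 5′ UTR is far shorter. The 0.224% is thus not a share for 5′ UTRs of the length of the one printed with the hairpin. Among 3′ UTRs within 25% of the length of Tfrc's the share was 1.16%, and Tfrc was the 1 gene with 4 matches. With an unpaired base allowed, 2.95% of 3′ UTRs near the length of Slc11a2's held a match. None was found in the matched transcripts of Tfr2, Steap3, Slc25a37, Slc25a28, Ireb2 or Aco1, which says only that these letters are not there.

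The libraries held 26149725 estimated reads in replicate 1 and 14149299 in replicate 2, so the values of replicate 1 rest on more reads. The limit that a count of 0 allows was 0.115 CPM (counts scaled to the library total) in replicate 1 and 0.212 CPM in replicate 2, taken as 3 counts and covering counting error alone. The erythroid label was checked on markers. All 10 erythroid markers, among them globin genes, Klf1 and Gata1, reached 1 TPM in both libraries. None of 10 macrophage and none of 10 hepatocyte markers did. Those lists summed to 0.9 and 2.82 TPM for macrophages and to 1.17 and 1.34 for hepatocytes in replicates 1 and 2. The albumin gene Alb and the macrophage genes Spic and Vcam1 had no reads. The highest of the macrophage list was Itgam at 0.85 and 2.74 TPM, above 1 TPM in replicate 2 alone. The highest of the hepatocyte list was Apoa1 at 0.79 and 0.88 TPM. TPM is reads scaled to transcript length and to library size, and it is the scale used for levels of different genes.

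All 10 genes were detected, at 1 TPM or more in both libraries. Of all 21474 protein-coding genes 9776 were detected by the same rule, or 45.5%. The median level of the 10 was 28.1 TPM (22.7 in replicate 1 and 34.7 in replicate 2), against 15.5 TPM over the 9776. Together the 10 made up 0.275% of TPM in replicate 1 and 0.432% in replicate 2. The ferritin chains stood far above the rest, the receptor Tfrc came next, and the other 7 genes lay between 4.45 and 46.5 TPM. By mean level the order was Fth1, Ftl1, Tfrc, Slc25a37, Slc11a2, Slc25a28, Ireb2, Aco1, Steap3 and Tfr2. Down to Slc25a37 each gene was above its neighbour in every library. From Slc25a37 to Ireb2, and again from Aco1 to Tfr2, the ranges of neighbours across the libraries overlapped. Within each library, Slc11a2 was above Slc25a28, Aco1 above Steap3, and Steap3 above Tfr2, the last narrowly in replicate 1 (4.99 against 4.45 TPM). Slc25a37 and Slc11a2 changed places between the libraries, as did Slc25a28 and Ireb2, so the order within those pairs is not settled. The ranges of Ireb2 and Aco1 did not overlap.

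**Figure D1:**
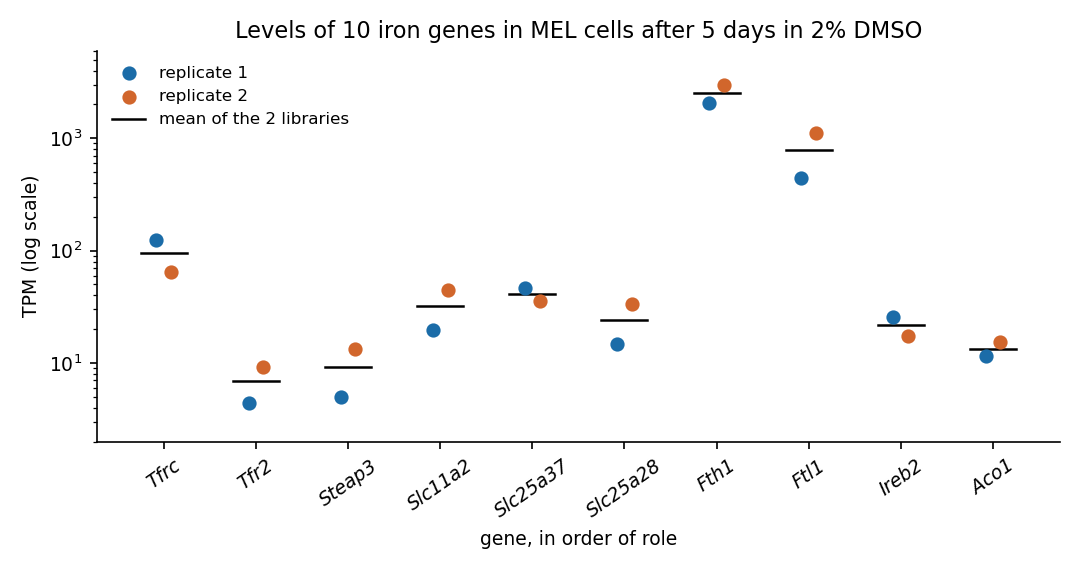
Level of each of the 10 genes in TPM on a log axis, 1 point for each library and a bar at the mean of the 2 libraries, from receptors at the left to iron regulatory proteins at the right. Fth1 lies between 2056 and 2965 TPM and Tfr2 between 4.45 and 9.25, and 7 of the 10 genes are higher in replicate 2. Over all genes tested the median log2 ratio of TPM, replicate 2 over replicate 1, is 0.21.

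The transferrin receptors differed most among the 4 pairs of related genes. Tfrc encodes transferrin receptor 1, the main entry route for iron in erythroid cells (chr16:32608920-32632794, plus strand). Its level was 125 TPM in replicate 1 and 65.2 in replicate 2 (95.3 ± 42.6, mean ± SD, n = 2), and 880 detected protein-coding genes stood above it. Tfr2 encodes transferrin receptor 2, a partner of the erythropoietin receptor in erythroid cells (chr5:137569840-137587481, plus strand). It had 4.45 and 9.25 TPM (6.85 ± 3.39, n = 2), from 311 and 365 reads on its single transcript. Tfrc was thus the higher receptor in both libraries, by 28.2-fold in replicate 1 and 7.04-fold in replicate 2 (17.6 ± 14.9, n = 2). Between the libraries the receptors went opposite ways, Tfrc being higher in replicate 1 than in replicate 2 and Tfr2 being lower. In RNA from a whole culture, fewer cells with a message and less of it per cell cannot be told apart.

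Much of the Tfrc value turned on how reads were divided among its transcripts. Tfrc-201 is the 4890-base message with all 2289 coding bases and a 3′ UTR of 2461 bases, and it carries the 4 hairpins printed above. It held 14.8% of Tfrc TPM in replicate 1 and 79.6% in replicate 2. The other transcripts mirrored this. Tfrc-204, annotated as a retained intron with no coding sequence, held 42.6% and 10.2%. Tfrc-202, a 1860-base form that ends early and has none of the hairpins, held 37.0% and 6.54%. Tfrc-205, a short retained intron, held 5.47% and 3.64%.

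By estimated reads, Tfrc-201 held 24.7% in replicate 1 (exact Clopper-Pearson 95% interval 23.8% to 25.7%) and 88.7% in replicate 2 (87.6% to 89.6%). These intervals cover counting error and not the division of reads. The transcripts overlap heavily, since 3201 of the 3527 bases of Tfrc-204 and 1554 of the 1860 bases of Tfrc-202 are also in Tfrc-201. The division reached the gene's level. The effective length that was deposited for Tfrc, which weighs its transcripts, was 2905 bases in replicate 1 and 4352 in replicate 2. Tfrc was 1.93-fold higher in replicate 1 by TPM, which uses this length, and 1.46-fold by scaled reads, which do not. These measures also scale the libraries differently, so length is not all that separates them. Fth1, of the same effective length in both libraries, was 1.44-fold higher in replicate 2 by TPM and 1.27-fold by scaled reads. Transcripts with the hairpins, Tfrc-201 and Tfrc-204 together, held 57.5% and 89.8% of TPM (73.7 ± 22.9%, n = 2) and 75.9% and 96.8% of reads.

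**Figure D2:**
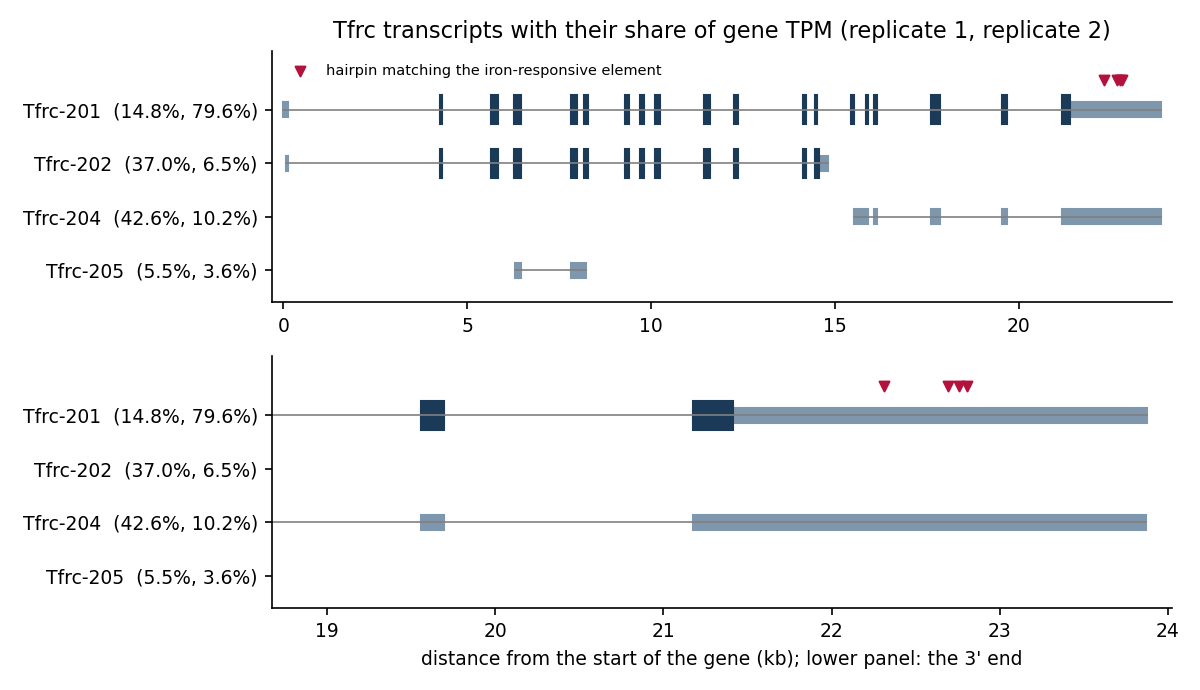
Exons of the 4 main Tfrc transcripts against distance from the start of the gene in kilobases, whole gene above and 3′ end below, with coding sequence as tall dark boxes, other exon sequence as low light boxes and introns as lines. Triangles mark the 4 hairpins, which lie in the last exon of Tfrc-201 and of Tfrc-204, and the numbers in brackets are shares of Tfrc TPM in replicates 1 and 2 (14.8% and 79.6% for Tfrc-201).

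Steap3 encodes the endosomal ferrireductase that turns ferric into ferrous iron after transferrin has let it go (chr1:120190757-120272705, minus strand). Its level was 4.99 TPM in replicate 1 and 13.4 in replicate 2 (9.19 ± 5.94, n = 2), from 358 and 545 reads. Replicate 2 was the higher library, and 4 of its 5 transcripts had reads. The leading transcript was not the same in the libraries. Steap3-202 (1464 coding bases) held 71.1% of TPM in replicate 1 and 25.4% in replicate 2. Steap3-204, a 2873-base form with 1578 coding bases, held 19.3% and 60.9%. Steap3-203, a 5158-base form with a longer 3′ UTR, held 9.64% and 7.47%. Steap3-201 was listed at 0 in replicate 1 and held 6.27% of TPM in replicate 2, and by posterior mean TPM its share was 2.90% and 8.17%.

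Slc11a2 encodes DMT1, which moves ferrous iron out of the endosome (chr15:100387898-100425072, minus strand). It had 19.7 TPM in replicate 1 and 44.7 in replicate 2 (32.2 ± 17.7, n = 2). The reads behind these were closer, 708 and 644, or 27.1 and 45.5 CPM. The gene's effective length differed between the libraries, 1484 against 1053 bases. Its ratio was 2.27-fold by TPM and 1.41-fold by scaled reads, measures that also scale the libraries differently.

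Of the 8 Slc11a2 transcripts quantified, 5 had reads. DMT1 is made from messages with and without a hairpin in the 3′ UTR. The form with it is Slc11a2-205 (4415 bases), and the full form without it is Slc11a2-201 (3025 bases). Slc11a2-205 held 15.4% of TPM in replicate 1 and 4.43% in replicate 2 (9.91 ± 7.75%, n = 2), while Slc11a2-201 held 18.9% and 19.4%. Short fragments took most of the TPM. Slc11a2-207, a 389-base entry whose coding end was not found, held 59.6% and 42.4% of TPM but 13.8% and 13.9% of reads. Slc11a2-204, a 393-base entry annotated for nonsense-mediated decay, held 28.8% of TPM in replicate 2 and was listed at 0 in replicate 1. By posterior mean TPM its share was 10.2% in replicate 1 and 29.8% in replicate 2, so the 0 depends on how reads were divided. Slc11a2-203, a 718-base entry without its start, held 6.15% and 4.97%.

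Setting the full forms against each other leaves the fragments aside. Of their reads, Slc11a2-205 held 321 of 590 in replicate 1, or 54.4% (exact 95% interval 50.3% to 58.5%). In replicate 2 it held 119 of 472, or 25.2% (21.4% to 29.4%). The form with the hairpin was the more abundant of the pair by reads in replicate 1 and the less abundant in replicate 2. By TPM it was the smaller in both, at 44.9% and 18.6% of the pair.

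**Figure D3:**
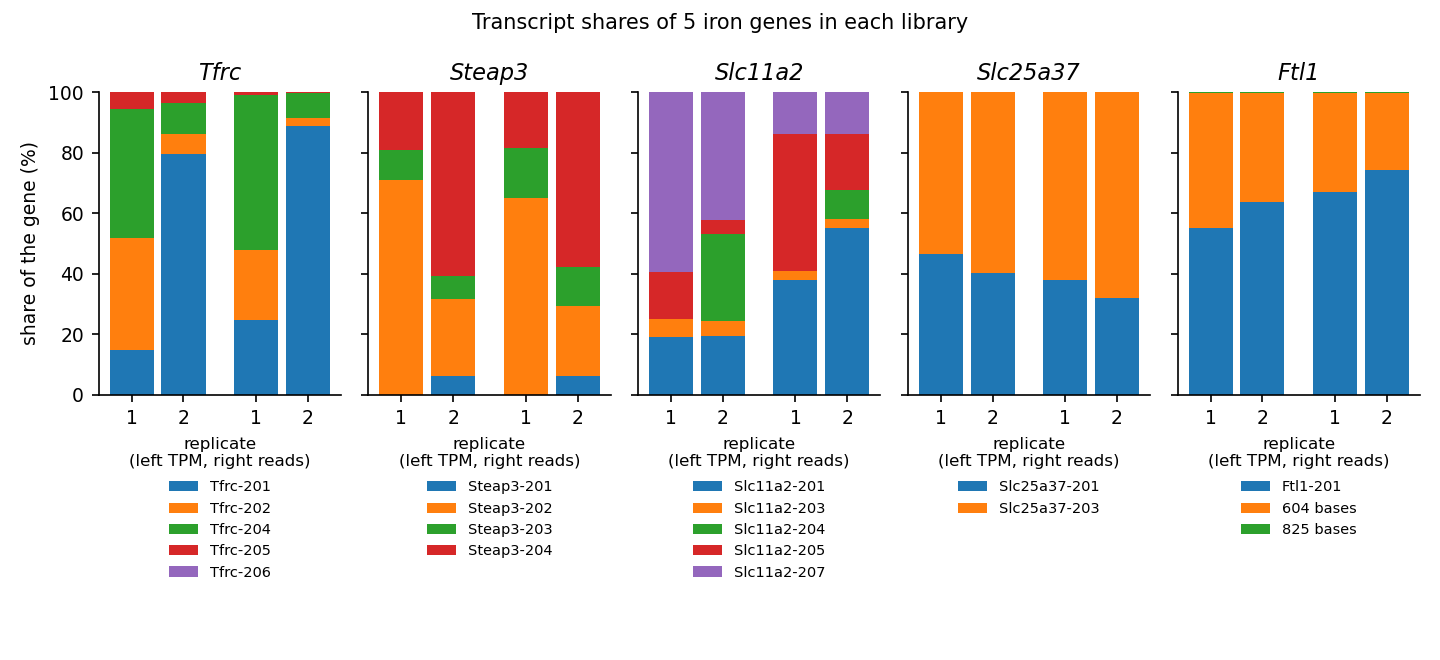
Share of each gene in percent held by its transcripts, for 5 of the 10 genes, with shares of TPM in the left pair of bars and shares of estimated reads in the right pair, replicate 1 before replicate 2. Tfrc-201 has 14.8% of TPM in replicate 1 and 79.6% in replicate 2, the leading Steap3 transcript is not the same in both, and Slc25a37 and Ftl1 keep the same leading transcript.

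The mitoferrins carry iron through the inner mitochondrial membrane. Slc25a37, mitoferrin 1, is the form that erythroid cells use (chr14:69241848-69285112, minus strand). It had 46.5 TPM in replicate 1 and 35.9 in replicate 2 (41.2 ± 7.50, n = 2). Slc25a28, mitoferrin 2, is the form of most other tissues (chr19:43663801-43674881, minus strand). It had 14.6 and 33.5 TPM (24.1 ± 13.4, n = 2) on its single transcript. Mitoferrin 1 was higher in both libraries, by 3.18-fold in replicate 1 and by 1.07-fold in replicate 2 (2.13 ± 1.49, n = 2), so that in replicate 2 the pair was nearly level. Their sum was steadier, 61.2 and 69.5 TPM.

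The Slc25a37 reads were divided between the coding message and a retained intron. Slc25a37-203, the retained intron with no coding sequence, held 53.6% and 59.8% of TPM. The coding Slc25a37-201 held 46.4% and 40.2%. The retained intron is 5927 bases long and contains 4171 of the 4174 bases of Slc25a37-201, so few positions tell the coding form apart. Per length, Slc25a37-201 alone had 21.6 and 14.4 TPM, above Slc25a28 in replicate 1 and below it in replicate 2.

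Ferritin led the genes in both libraries. Fth1 encodes the heavy chain, which oxidizes iron on entry (chr19:9980598-9985098, plus strand). Its level was 2056 TPM in replicate 1 and 2965 in replicate 2 (2511 ± 643, n = 2), and 31 protein-coding genes stood above it. Ftl1 encodes the light chain, which helps the iron core form (chr7:45457944-45459884, minus strand). It had 442 and 1123 TPM (783 ± 482, n = 2), with 76 protein-coding genes above it. Replicate 2 was higher for both chains. Heavy chain messages outnumbered light chain messages 4.66-fold in replicate 1 and 2.64-fold in replicate 2 (3.65 ± 1.43, n = 2), and the chains summed to 2498 and 4088 TPM. These are message levels, and the IRE acts on translation, so they give no protein ratio.

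Fth1 has 1 transcript in the tables, with the hairpin. Of Ftl1 TPM, Ftl1-201, which has the hairpin, held 55.1% and 63.6%. A 604-base transcript held 44.5% and 36.1%, and it has no entry in the later annotation and was not searched. Ferritin genes have near-identical copies elsewhere in the genome, and reads can be shared with them. The 4 copies taken by symbol that had reads summed to 0.503% of ferritin TPM in replicate 1 and 0.288% in replicate 2. The highest were Ftl1-ps1 (9.58 and 6.1 TPM), Ftl2-ps (1.51 and 5.55) and Fth-ps2 (0.79 and 0.15). The share was larger for the light chain alone. Copies found by alignment held 2.64% and 1.07% of the TPM of Ftl1 and its copies, against 0.023% and 0% for Fth1. For the other 8 genes no transcript of another gene reached 90% identity over 50% of their length. The uncertainty that the estimation itself gave to the Ftl1 count was an SD of 29.5 reads in 8145 and of 33.6 in 12188.

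The iron regulatory proteins closed the list. Ireb2 encodes IRP2, which is degraded when iron is plentiful (chr9:54863789-54912530, plus strand). It had 25.7 TPM in replicate 1 and 17.5 in replicate 2 (21.6 ± 5.81, n = 2), on 1 transcript. Aco1 encodes IRP1, which is a cytosolic aconitase when it holds an iron-sulfur cluster (chr4:40143081-40198338, plus strand). It had 11.5 and 15.3 TPM (13.4 ± 2.67, n = 2), with Aco1-201 holding 97.7% and 100% of its TPM. Ireb2 was the higher in both libraries, by 2.24-fold and 1.15-fold (1.69 ± 0.772, n = 2), and the sum was 37.2 and 32.7 TPM.

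How far the libraries differed was read from a log2 ratio of replicate 2 over replicate 1, from counts scaled with TMM (a scaling that assumes most genes are level) and a prior count of 1. Of 13522 genes that averaged 10 counts or more, 31.5% lay more than 2-fold apart, 15.2% higher and 16.4% lower in replicate 2. Of the 10 iron genes 3 did, all higher in replicate 2. They were Steap3 at 1.24, Ftl1 at 1.22 and Slc25a28 at 1.01, the last just over the line at 2.01-fold. Tfr2 was just under it at 0.87. The share of members is near that of all genes averaging 10 counts or more. That set includes genes of lower counts than any of the 10, and the share at like counts was not worked out. With counts scaled to the library total, 22.7% of all genes were higher and 11.2% lower, and with TPM 21.3% and 12.5%, against 4 and 5 of the 10 iron genes higher and 0 lower. The remaining log2 ratios were 0.50 for Slc11a2, 0.34 for Fth1, 0.25 for Aco1, -0.53 for Slc25a37, -0.55 for Tfrc and -0.74 for Ireb2. The median of the 10 was 0.42, against 0.013 over all genes tested. The credibility bounds deposited for TPM in one library did not reach those of the other for any of the 10 genes, which was common in these data: it held for 62.2% of the 13522 genes and for 74.1% of the 9597 that averaged 100 counts or more, as all 10 did. For Aco1 the bounds were 10.5 to 12.2 in replicate 1 and 13.5 to 15.9 in replicate 2. For Tfr2 they were 3.79 to 4.73 and 7.66 to 9.41. The bounds enclosed the posterior mean TPM of all 10 genes, but not always the TPM used for levels. That TPM lay above its bounds in both libraries for Fth1, Ftl1, Tfrc, Slc25a37 and Ireb2, and in replicate 2 for Slc25a28. For Fth1 in replicate 1 it was 2056, against bounds of 1940 to 1978.

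Base composition moved with these ratios. The 3 genes lower in replicate 2 were those of lowest GC content in their transcripts, Ireb2 at 39.0%, Tfrc at 39.4% and Slc25a37 at 48.4%. The other 7 had from 52.1% (Aco1) to 60.9% (Slc25a28) and were all higher. Over the 8894 protein-coding genes that averaged 100 counts or more, the median log2 ratio was -1.19 below 40% GC and -0.56 from 40% to 50%. It was 0.28 from 50% to 55% and 0.86 above that. Against the trend of all genes at their own GC content, 0 of the 10 stayed past 2-fold, and their median was 0.10. Of genes that averaged 10 counts or more, many of them lower in counts than the 10, 16.3% stayed past it. Steap3 was then at 0.65, Tfrc at 0.58, Ireb2 at 0.42, Ftl1 at 0.36 and Slc25a37 at -0.29. Tfrc and Ireb2 were thus on the other side of 0, as were Slc25a28 (-0.076) and Fth1 (-0.050), and 9 of the 10 lay nearer to 0, Tfrc being the exception. Whether GC content accounts for the ratios between the libraries was not tested.

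**Figure D4:**
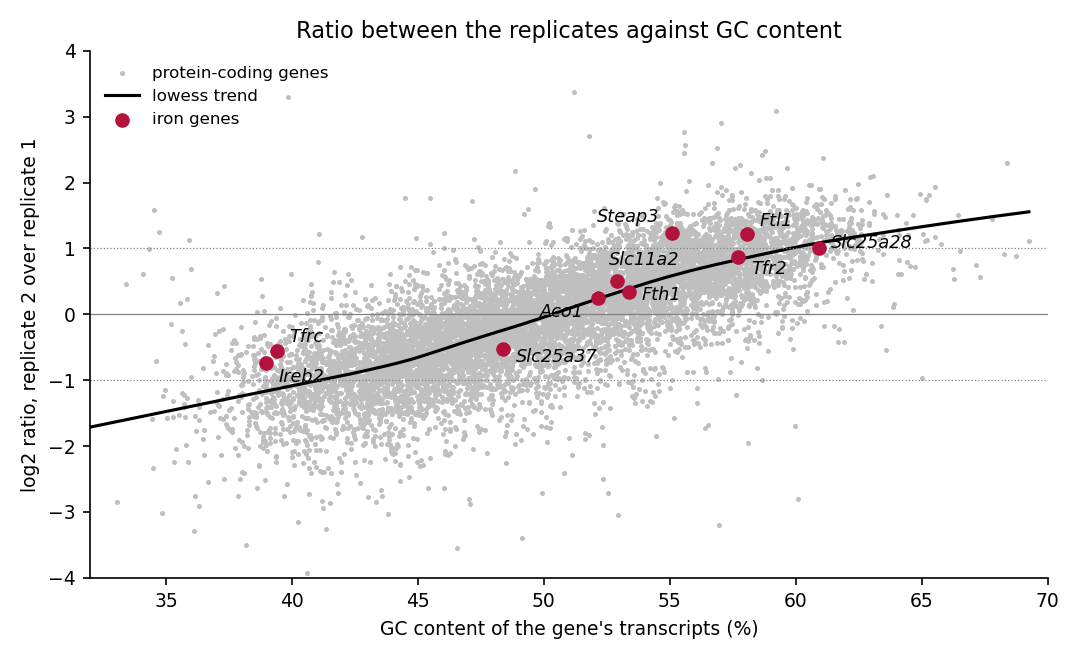
Log2 ratio of replicate 2 over replicate 1 against the GC content of each gene's transcripts in percent, with 8894 protein-coding genes in grey, their lowess trend as a line, 2-fold as dotted lines and the 10 iron genes in red; 11 genes lie outside the axes. The iron genes follow the rise of the trend from Ireb2 at 39.0% GC to Slc25a28 at 60.9%, with Steap3 and Tfrc farthest above it.

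The other genes of iron handling were taken from 7 lists by role. Of their 55 genes 54 were measured and 34 detected, beside 45.5% of all protein-coding genes detected, and 7 had no reads. Of the 39 with enough counts for a ratio, 6 were more than 2-fold higher and 4 lower in replicate 2, beside 15.2% and 16.4% of all genes, with a median log2 ratio of -0.12. Among the higher ones were Bola2, Id1, Erfe, Slc22a17 and Epas1, and the lower ones were Fbxl5, Zfp36l1, Slc39a8 and Exoc6. In each list below, genes are named from the 3 highest and the lowest.

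Of the transferrin cycle 5 of 13 genes were detected. They were led by the sorting genes that return receptors from endosomes, Snx3 at 376 and 320 TPM and the retromer gene Vps35 at 155 and 119, and by Picalm, a clathrin adaptor gene, at 78.3 and 59.1. Hfe, whose product binds transferrin receptor 1, the ferritin receptor gene Scara5 and the reductase gene Steap4 had no reads, and Steap2 had 0.69 and 0.65 TPM. Steap3 was thus the 1 detected gene of the STEAP reductases measured. Of other import and export genes 5 of 10 were detected. The metal transporter gene Slc39a8 had 39.0 and 20.2 TPM, the heme and folate carrier gene Slc46a1 9.7 and 15.1, and Slc40a1, which encodes the exporter ferroportin, 10.4 and 7.32. Lcn2, for a siderophore binder, had no reads.

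Genes that hand iron to ferritin and take it back were detected in 6 of 7 cases. The iron chaperone gene Pcbp2 had 558 and 757 TPM, Bola2, a partner of a cytosolic glutaredoxin, 51.6 and 155, and Ncoa4, the receptor that takes ferritin to the lysosome, 88.0 and 63.8. Ftmt, the mitochondrial ferritin gene, had no reads. Among the ferritin genes looked at, the messages were thus those of Fth1 and Ftl1 apart from the copies above. The Fthl17 genes were left out of the search by symbol. All 8 measured genes for IRP turnover and Tfrc message decay were detected. The ubiquitin ligase genes Cul1 and Rbx1 had 62.0 and 59.0 TPM and 27.4 and 21.8 TPM, and Fbxl5, the iron-sensing subunit that marks IRP2 for degradation, had 22.9 and 13.95. Zc3h12a, whose product regnase-1 cuts the Tfrc message, was lowest at 1.05 and 1.35.

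The 5 mitochondrial partners were all detected. Fech, which puts iron into protoporphyrin, had 199 and 362 TPM, and Abcb10, which stabilizes mitoferrin 1, 49.1 and 88.6. Abcb10 and its partner Slc25a37 lay on opposite sides between the libraries, at log2 ratios of 0.66 and -0.53, neither past 2-fold. Their GC contents were 53.7% and 48.4%, in the ranges where the median log2 ratios of protein-coding genes were 0.28 and -0.56. Whether GC content accounts for the difference was not tested. Of other messages known to carry an IRE 5 of 6 were detected. Alas2, the erythroid enzyme that starts heme synthesis, had 1060 and 2680 TPM, and Cdc42bpa 24.3 and 28.4. Epas1, the hypoxia factor HIF-2 alpha, was lowest at 0.01 and 0.65. Ferritin heavy chain thus exceeded Alas2 in both libraries, and Ftl1 did not.

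Of the hepcidin axis, through which the body sets iron uptake, 2 of 7 genes were detected. Id1, a target of BMP signals, had 76.3 and 205 TPM, and Smad4, which carries those signals to the nucleus, 66.4 and 70.2. Erfe, the erythroid hormone erythroferrone that lowers hepcidin, had 0.87 TPM in replicate 1 and 4.27 in replicate 2, from 35.4 and 100.1 estimated reads. The hepcidin gene Hamp had 0 and 2 reads, and Hamp2 and the hemojuvelin gene Hfe2 had none.

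**Figure D5:**
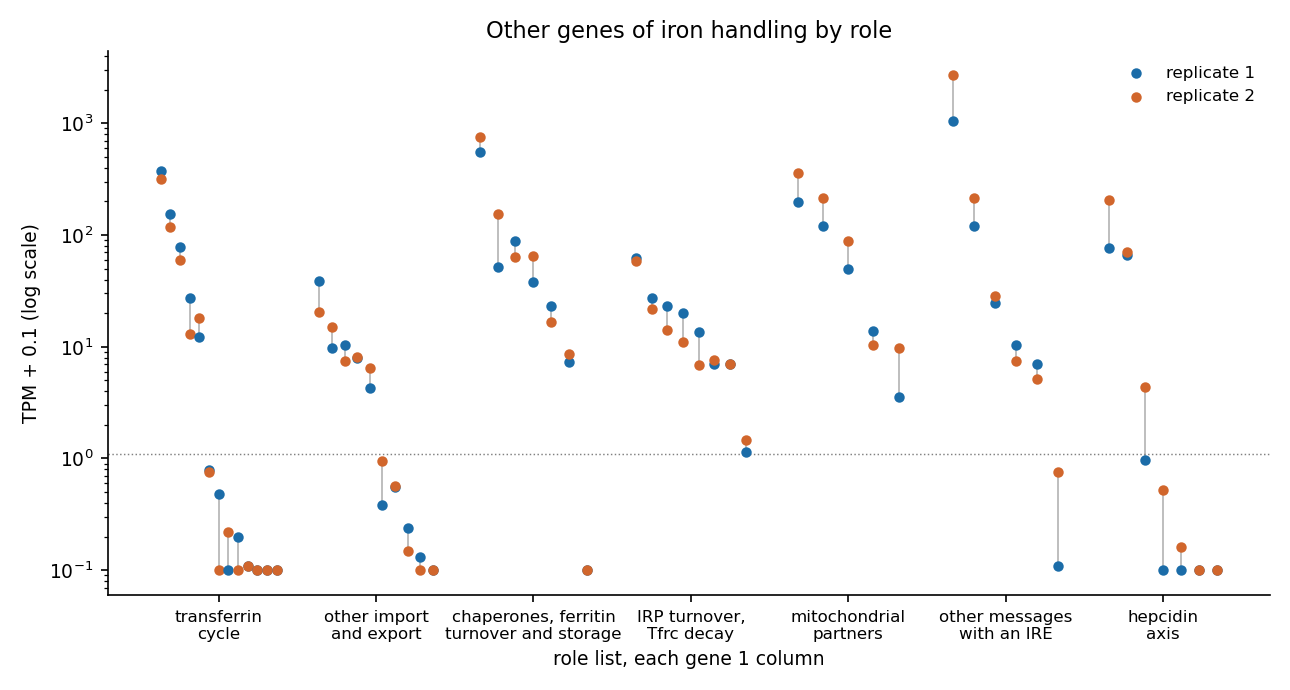
Level of each measured gene of the 7 role lists in TPM + 0.1 on a log axis, 1 column for each gene from high to low within its list, a point for each library and a line between the libraries; the dotted line is the detection level of 1 TPM. The IRP turnover and mitochondrial lists lie at or above the line in both libraries, while most of the transferrin cycle (8 of 13 genes not detected) lies under it.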

How the data were processed

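PolyA RNA of DMSO-treated MEL cells was quantified by the submitters on mm10 with the GENCODE M4 annotation, per the labels and the file lists, with a program and aligner not given in the sources used here. Deposited by the authors were expected counts, which are estimated reads left unscaled, per the file headers. TPM, its posterior mean and the credibility bounds, a signal on the TPM scale whose level is not given, were deposited as length-scaled values, per the file headers. The transcript tables also hold each transcript's percent of its gene as deposited by the authors. The 10 genes and all gene lists were chosen with earlier results of these data known.

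Symbols, transcripts and coordinates came from GENCODE M21 (also mm10) through Ensembl IDs (42462 of 43346 genes; 32 of the 36 transcripts of the 10 genes, 29 of equal length; for Slc25a28, Fth1 and Ireb2 the lengths differ). Skp1 was not matched. The 26345 rows that name no gene held 0.0296% and 0.0465% of reads in replicates 1 and 2, stayed out of ratios, and are part of deposited TPM (0.806% and 1.49%). Reads are divided by estimation among overlapping transcripts and near-identical copies, which makes shares of overlapping transcripts and single copies uncertain, and short transcripts get high TPM from few reads. Counts were rounded for ratios (edgeR 4.0.16 TMM, DESeq2 1.42.0 size factors, R 4.3.3, prior count 1, mean of at least 10 counts). A lowess curve (span 0.3, 3 iterations) gave the trend on GC content, which was weighted by TPM over a gene's matched transcripts. Alignments used BLAST+ 2.17.0, figures matplotlib 3.10.9, and the rest statsmodels 0.14.6, scipy 1.17.1, numpy 2.4.6 and pandas 2.3.3 in Python 3.11.15. The calculations were tested on simulated data. Named were all 10 genes, their transcripts with at least 10% of TPM or reads, every Slc11a2 transcript with reads, and of each role list the 3 highest genes and the lowest by mean TPM, a few of which are left out of the text; genes past 2-fold in the lists, Tfrc-205, Steap3-201 and Steap2 were named after their values were seen. Alternatives were other scalings, units, detection levels and each library alone, and, added after the data were seen, ferritin copies found by alignment.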

Additional observations from a re-analysis of the deposited data

How the results depend on the processing

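No paired analysis was possible because the 2 libraries form 1 group. Levels of the 10 genes moved by less than the spread between the libraries with posterior mean TPM and with TPM rescaled to Ensembl genes. The ratios between paired genes depended on length scaling and on the library. By expected counts, Slc25a37 to Slc25a28 was 7.37 in place of 2.13 and Ireb2 to Aco1 was 2.61 in place of 1.69, since the messages differ in length, while ferritin heavy to light was 3.88 and Tfrc to Tfr2 19.5. With 1 library left out, the ratios ran from 2.64 to 4.66 for ferritin, from 1.07 to 3.18 for the mitoferrins, from 1.15 to 2.24 for the IRPs and from 7.04 to 28.2 for the receptors. The count of genes past 2-fold was 3, and it became 5 by TPM, 4 by library totals and 0 with the GC trend removed, which also turned Slc25a28 from 1.01 to -0.076 (log2). Library totals moved the median log2 ratio of all genes to 0.26 and TPM moved it to 0.21, and the median of the 10 to 0.67 and 0.78. The Slc11a2 share on the message with the hairpin was 9.91% by TPM and 31.9% by expected counts, since the short fragments weigh less there. It was 4.43% and 15.4% with replicates 1 and 2 left out. At a detection level of 5 TPM, 8 of the 10 genes were detected. Ferritin copies made up 0.396% of the TPM of both chains, by symbol and by alignment. For Ftl1 alone the share by alignment was 2.64% in replicate 1 and 1.07% in replicate 2.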
